A study of Mus musculus with 28 samples.

Results

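EO771, a mouse breast cancer line, was kept directly on a layer of MLg, a mouse lung fibroblast line, and its RNA was compared with that of EO771 cells that had not been co-cultured. There were 4 libraries of EO771 with MLg (named R6-1, R5-1, R6-2 and R7-1) and 4 of EO771 alone (R3-1, R3-2, R5-1 and R6-2), out of 28 libraries in the series, and per-library values below follow these orders. All groups carried the label WT and were grown in DMEM with 10% fetal bovine serum and penicillin-streptomycin, and the series also holds 4 libraries of EO771 kept on C2C12 myotubes, a differentiated mouse muscle line. Each line is a single established cell line. The time in co-culture and the way in which the lines were separated before RNA extraction are unknown from the labels, nor is it stated that replicates came from separate cultures, so p-values measure the spread between these libraries.

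Because fibroblast RNA can enter a cancer cell library, genes were described only where the mean in MLg alone was at most 4 times the mean in EO771 alone, in CPM (counts per 1000000 counts of a library). This rule kept 46837 of the 55536 genes, of which 21673 had no count in any of the 12 EO771 libraries. The low count filter left 13810 of these genes to be tested, out of 15794 genes tested in all. Among the genes called in the test below, Ifngr2 and Oas1b lay just inside the rule, with ratios of 3.95 and 4.00. Bmpr2 and Rgs12 were the called genes just outside it, with ratios of 4.02 and 4.03.

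Breast cancer cells that reach the lung meet fibroblasts there, which make collagens, proteases and growth factors and store TGF-beta in their matrix. TGF-beta binds a receptor pair that phosphorylates SMAD2 and SMAD3, and these drive both matrix genes and the pathway's own inhibitors, whereas the related BMP ligands act through SMAD1 and SMAD5 and drive the ID genes. Interferons act through STAT and IRF factors on antiviral genes, and stress and growth factor signals act through AP-1, a FOS and JUN dimer.

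Promoters of 4 genes named below are shown first, each from 250 bases before to 50 bases after the gene's start, in RefSeq sequence of build GRCm38.p6. Capitals mark each match to the AP-1 motif TGANTCA in the first 3, and in Ifit1 each match to the core of the interferon-stimulated response element, searched as GAAA, any 2 bases and GAAA, on either strand. The first 3 windows hold no match to the interferon motif and the Ifit1 window holds none to the AP-1 motif.
Sprr1a, chr3:92485832-92486131, minus strand: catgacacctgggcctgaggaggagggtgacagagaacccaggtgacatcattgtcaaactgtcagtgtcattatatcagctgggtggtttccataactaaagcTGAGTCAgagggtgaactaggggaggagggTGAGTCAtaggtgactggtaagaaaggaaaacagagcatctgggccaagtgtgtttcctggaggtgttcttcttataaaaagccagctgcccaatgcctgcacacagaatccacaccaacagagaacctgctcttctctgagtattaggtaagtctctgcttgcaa
Sprr2k, chr3:92432332-92432631, plus strand: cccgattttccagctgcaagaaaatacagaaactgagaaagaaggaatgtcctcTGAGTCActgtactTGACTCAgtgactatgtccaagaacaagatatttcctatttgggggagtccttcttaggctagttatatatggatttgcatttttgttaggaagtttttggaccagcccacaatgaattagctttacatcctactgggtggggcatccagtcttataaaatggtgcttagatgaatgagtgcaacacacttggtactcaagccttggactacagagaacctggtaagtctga
Lrrc15, chr16:30283205-30283504, minus strand: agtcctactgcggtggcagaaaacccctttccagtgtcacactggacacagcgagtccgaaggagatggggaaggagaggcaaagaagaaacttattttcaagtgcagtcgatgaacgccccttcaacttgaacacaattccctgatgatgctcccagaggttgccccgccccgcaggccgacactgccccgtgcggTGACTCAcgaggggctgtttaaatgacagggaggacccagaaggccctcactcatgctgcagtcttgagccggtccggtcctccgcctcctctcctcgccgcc
Ifit1, chr19:34640639-34640938, plus strand: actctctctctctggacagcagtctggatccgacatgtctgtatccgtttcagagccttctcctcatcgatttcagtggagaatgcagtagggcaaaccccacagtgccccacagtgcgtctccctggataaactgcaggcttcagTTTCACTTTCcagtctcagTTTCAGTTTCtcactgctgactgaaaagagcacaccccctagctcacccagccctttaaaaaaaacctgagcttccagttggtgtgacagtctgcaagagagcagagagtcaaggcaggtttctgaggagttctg

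A promoter was matched for 9311 of the 13810 genes. The AP-1 motif was found in 6.4% of them, in 14.2% of the 267 promoters of genes called higher with MLg and in 10.7% of the 413 promoters of genes called lower. Among the 15 largest rises, 10 had a promoter in the table and 4 of these held the motif, those of Sprr1a, Upp1, Sprr2k and Tmem40, and among the 15 largest falls it was found in 3 of 11, those of Lrrc15, Apol9b and Sphk1. The interferon motif was found in 3.33% of all 9311 promoters, in 4.49% of those called higher and in 3.15% of those called lower. It was found in 1 of the 10 promoters of the largest rises, that of Ifit1, and in 4 of the 11 of the largest falls, those of Acsbg1, Apol9b, Saa3 and Tgfbi. The palindrome GTCTAGAC, a SMAD binding motif, was found in 30 of the 9311 promoters, or 0.322%. It was in none of the 9 matched promoters of the 14 TGF-beta target genes called below. A motif this rare is absent from most sets of 9 promoters, so this count cannot show a difference. These are matches of letters in these windows.

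Library totals were 33208653 to 48336935 counts in EO771 with MLg and 34088050 to 38984827 counts in EO771 alone. The keratin Krt8 stood at 101 ± 23.0 CPM with MLg and 93.3 ± 2.35 CPM alone (SD, n = 4 each), and the 6 markers of its list summed to 72.5 to 129 CPM with MLg and 92.0 to 96.8 CPM alone. In that list Cdh1 was at 0.106 and 0.0562 CPM, Epcam at 0.179 and 0.514 CPM and Krt19 at 0, while the epithelial genes Pkp3, Sbsn and Cdsn, which are not in it and are given below, stood higher, and the mesenchymal gene Vim stood at 3209 and 3039 CPM. Over 350 genes found in MLg and not in EO771, the with MLg libraries held 1.49%, 1.79%, 1.02% and 1.88% of the level in co-cultured MLg cells, and the alone libraries, by the choice of those genes, 0.0137% on average. EO771 RNA in the libraries of MLg with EO771 was not measured, so levels given for co-cultured MLg may include it. The sum of 20 fibroblast markers was 955 to 1383 CPM with MLg, 622 to 912 CPM alone and 36948 to 42373 CPM in MLg with EO771, and Thy1 was at 0 in all 3. Macrophage markers (8 genes) summed to 11.0 to 19.3 CPM with MLg and 12.4 to 14.5 CPM alone, endothelial markers (6 genes) to 2.59 to 5.42 and 1.85 to 4.44 CPM, and muscle markers (12 genes) to 8.90 to 16.4 and 11.2 to 12.6 CPM. With MLg R5-1 and R7-1 stood apart from R6-1 and R6-2 on the second principal component, which held 14.8% of the variance, and mitochondrial transcripts made up 11.7% and 10.0% of their counts, against 4.07% and 5.13% in R6-1 and R6-2 and 4.22% to 6.68% in EO771 alone.

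With MLg, 361 of the 13810 genes were higher than in EO771 alone, which is 2.61% of them, and 528 were lower, which is 3.82% (edgeR quasi-likelihood test, Benjamini-Hochberg adjusted p under 0.05 over all genes tested). Together this is 889 genes or 6.44%, and 2432 genes had an unadjusted p under 0.05. The change reached 2-fold for 99 genes that rose and 126 that fell, and the median log2 fold change of all 13810 was -0.01. The groups did not overlap for 1574 genes, or 11.4%. Leaving out with MLg R5-1 and R7-1 together gave 588 higher and 649 lower. Of the called genes 59.4% were lower, against 44.8% in a fit of all 28 libraries, in which the median log2 fold change was 0.04, and 37.6% over all genes tested without the partner rule. Without that rule 946 of 15794 genes (5.99%) were higher and 569 (3.6%) lower, 9.59% in all. Of the 1984 genes that the rule set aside, 29.5% were called higher and 2.07% lower, 31.6% in all. In these bulk libraries, fewer cells expressing a gene and less RNA per cell cannot be told apart.

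**Figure D1:**
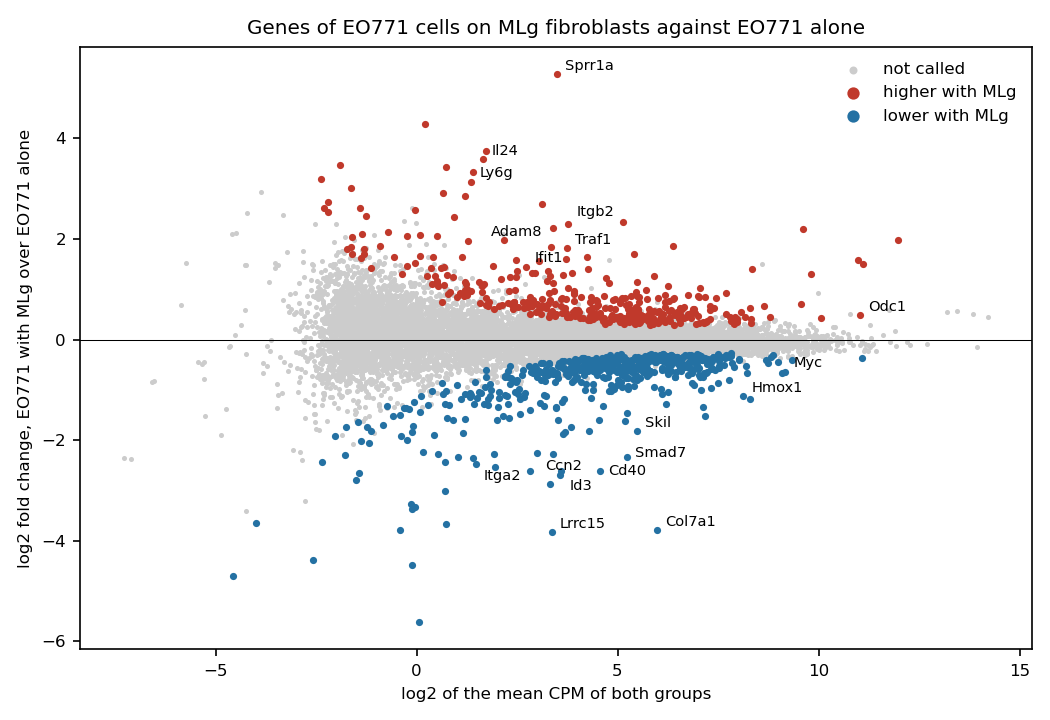
Each point is 1 of the 13810 genes tested, with the log2 of its mean CPM over both groups on the x axis and the log2 fold change of EO771 with MLg over EO771 alone on the y axis. Red points were called higher (361) and blue points lower (528), and Sprr1a, at a log2 fold change of 5.27, and Lrrc15 and Col7a1, at -3.82 and -3.79, are among those named.

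Target genes of TGF-beta fell together. Of 22 tested members of a list of TGF-beta target and feedback genes, 14 were lower with MLg and none was higher, with a median log2 fold change of -0.79 over the 22. That is 63.6% lower, against 3.82% of all 13810 genes. Earlier results of these data had named 5 of the 14 (Smad7, Ccn2, Lrrc15, Col7a1 and Bhlhe40), and without them 9 of 17 were lower, with a median of -0.57. A further 5 tested genes of the list lay outside the partner rule, and 3 of those were called higher.

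Lrrc15, a leucine-rich repeat membrane protein known as a TGF-beta response gene of fibroblasts, fell the most among genes at 5 CPM or more. It stood at 1.03, 1.72, 0.980 and 1.69 CPM with MLg, against 16.1, 18.4, 24.0 and 18.3 CPM in EO771 alone. All 4 libraries with MLg lay below every library of EO771 alone, a 14.1-fold lower level (log2 fold change -3.82 ± 0.23 SE, edgeR adjusted p = 1.52e-09). The gene (ENSMUSG00000052316) lies on chromosome 16 from 30269302 to 30283256 in the GENCODE M21 annotation of GRCm38, on the minus strand, and its annotated start lies in the promoter window printed above.

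Col7a1 encodes type VII collagen, which forms the fibrils that anchor basement membranes, and lies on chromosome 9 from 108953586 to 108984875. It stood at 6.37, 7.02, 7.70 and 13.0 CPM with MLg, against 102, 139, 135 and 96.8 CPM in EO771 alone. The highest library with MLg lay far below the lowest alone, and the level was 13.8-fold lower (log2 fold change -3.79 ± 0.19 SE, edgeR adjusted p = 2.3e-10). MLg cells grown with EO771 held Col7a1 at 14.2 CPM and Lrrc15 at 0.209 CPM.

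Feedback inhibitors of the pathway were among the genes that fell, while Ski and Smurf2, which also restrain it, were not called. Smad7, the inhibitory SMAD, stood at 10.9, 14.5, 9.67 and 14.6 CPM with MLg, against 61.7, 69.0, 74.7 and 46.3 CPM alone, 5.02-fold lower (log2 fold change -2.33 ± 0.16 SE, edgeR adjusted p = 8.79e-09). Skil, the SnoN repressor of SMAD complexes, stood at 20.2, 20.9, 18.2 and 18.5 CPM with MLg, against 70.2, 78.7, 69.8 and 58.9 CPM alone, 3.53-fold lower (log2 fold change -1.82 ± 0.11 SE, edgeR adjusted p = 1.52e-09). The 4 values with MLg were tight for Skil and separate from those alone for both genes. Tgif1, another SMAD co-repressor, averaged 94.3 ± 17.0 CPM with MLg and 143 ± 5.44 CPM alone (SD, n = 4 each, edgeR adjusted p = 0.00231).

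Secreted and matrix-linked targets fell as well. Tgfbi, a secreted adhesion protein named for its induction by TGF-beta, stood at 6.25, 4.76, 6.29 and 3.92 CPM with MLg, against 18.0, 21.3, 20.9 and 18.8 CPM alone (log2 fold change -1.88 ± 0.15 SE, edgeR adjusted p = 9.6e-08). The 4 libraries with MLg all lay far below the 4 alone. Ccn2, the matricellular protein CTGF, was at 1.80, 4.67, 1.91 and 2.52 CPM with MLg, against 10.1, 10.6, 17.8 and 14.0 CPM alone (log2 fold change -2.25 ± 0.30 SE, edgeR adjusted p = 3.22e-05), with R5-1 the highest of the libraries with MLg.

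Among signalling targets, Sphk1, which makes sphingosine 1-phosphate, stood at 3.10, 3.64, 3.89 and 3.70 CPM with MLg, against 16.3, 17.4, 18.2 and 18.1 CPM alone, 4.86-fold lower (log2 fold change -2.28 ± 0.14 SE, edgeR adjusted p = 2.93e-09). The spread was small in both groups and the gap was wide. The transcription factor Snai1, a driver of epithelial-mesenchymal transition, averaged 2.88 ± 0.566 CPM with MLg and 6.23 ± 0.451 CPM alone (SD, n = 4 each, edgeR adjusted p = 0.00263). The cytokine gene Il11 averaged 3.55 ± 1.09 and 7.38 ± 1.46 CPM (edgeR adjusted p = 0.0104), and Spsb1, a SOCS box adaptor, 2.97 ± 0.42 and 6.56 ± 0.285 CPM (edgeR adjusted p = 0.000838). Itgb5, an integrin chain that takes part in activating latent TGF-beta, averaged 75.2 ± 5.93 CPM with MLg and 112 ± 6.93 CPM alone (edgeR adjusted p = 0.00081).

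Among the pathway's ligands, receptors and SMADs few genes were called. Of 11 tested members of that list, Gdf11, an activin-like ligand, was called higher and none was called lower. The share higher was 9.09%, against 2.61% of all 13810 genes. The Gdf11 call was lost in 6 of the 8 fits that each left out 1 library (edgeR adjusted p up to 0.17). Tgfb1 averaged 39.6 ± 4.89 CPM with MLg and 31.3 ± 3.17 CPM alone (SD, n = 4 each, edgeR adjusted p = 0.085), and the type I receptor gene Tgfbr1 24.8 ± 4.37 and 33.8 ± 5.75 CPM (edgeR adjusted p = 0.0948). The type II receptor gene Tgfbr2 and the mediator gene Smad3 are far more abundant in MLg and fell outside the partner rule.

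**Figure D2:**
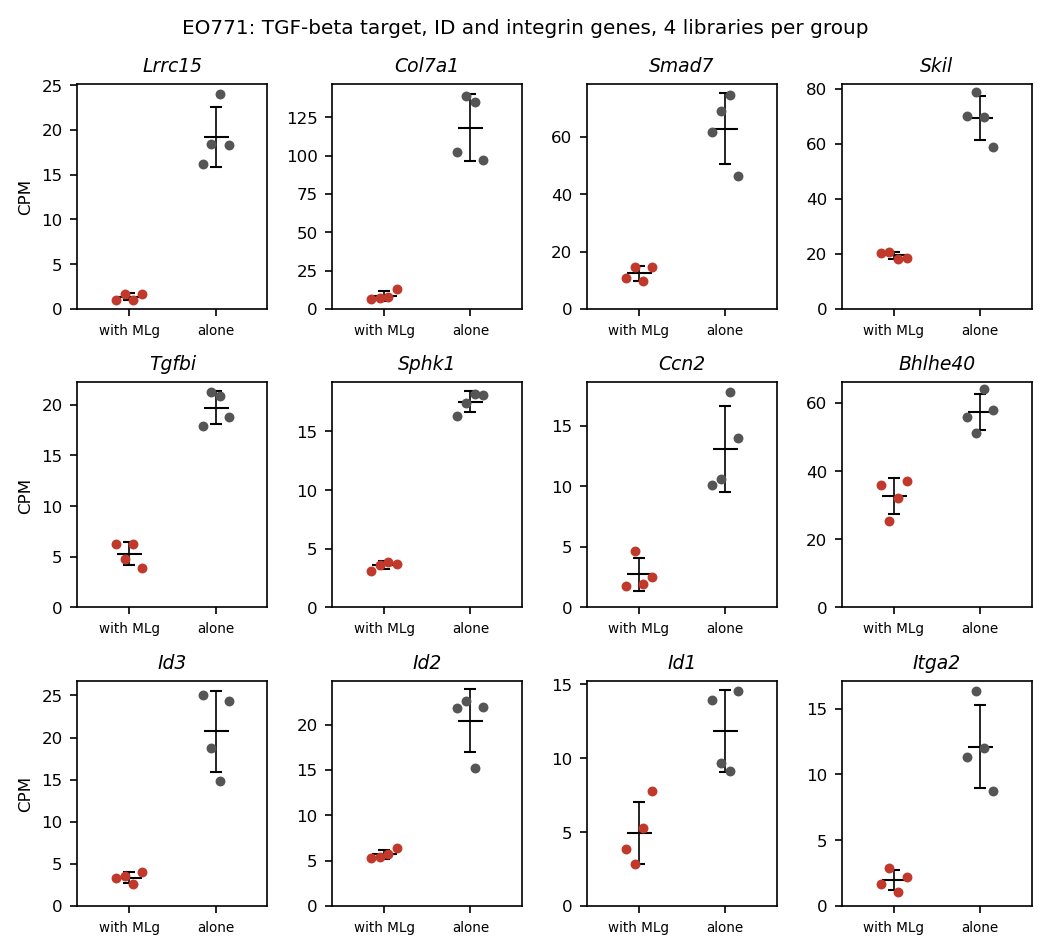
CPM of 12 genes in the 4 libraries of EO771 with MLg (red, left) and the 4 of EO771 alone (grey, right), each panel on its own linear axis from 0. Points are libraries, and the bars give the mean and SD. In all 12 panels every library with MLg lies below every library alone, from 1.36 against 19.2 CPM on average for Lrrc15 to 32.6 against 57.3 CPM for Bhlhe40.

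The ID genes fell with the TGF-beta targets. ID proteins bind basic helix-loop-helix factors and keep them from DNA. Id3 stood at 3.29, 3.55, 2.56 and 4.07 CPM with MLg, against 25.0, 18.8, 14.9 and 24.3 CPM alone, 6.11-fold lower (log2 fold change -2.61 ± 0.23 SE, edgeR adjusted p = 2.17e-07). Id2 stood at 5.32, 5.39, 5.69 and 6.35 CPM with MLg, against 21.8, 22.6, 15.2 and 21.9 CPM alone (log2 fold change -1.83 ± 0.15 SE, edgeR adjusted p = 1.66e-07). Neither gene's groups overlapped, and alone R5-1 was the lowest of its group for both.

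Id1 was lower too, at 3.85, 2.86, 5.28 and 7.74 CPM with MLg, against 13.9, 9.70, 9.16 and 14.6 CPM alone (log2 fold change -1.26 ± 0.24 SE, edgeR adjusted p = 0.00166), with with MLg R7-1 closest to the alone libraries. In the list of ID and BMP genes, 6 of 9 tested members were lower and none was higher, with a median log2 fold change of -0.41. That is 66.7% lower, against 3.82% of all 13810 genes. The other 3 lower genes were Bmp1, a protease that processes procollagens, at 128 ± 17.2 CPM with MLg and 234 ± 15.8 CPM alone (SD, n = 4 each, edgeR adjusted p = 7.64e-05), the BMP type I receptor gene Acvr1, at 35.8 ± 2.60 and 47.9 ± 4.31 CPM (edgeR adjusted p = 0.00704), and the BMP mediator gene Smad1, at 27.6 ± 3.19 and 35.8 ± 1.87 CPM (edgeR adjusted p = 0.0483). The Smad1 call was lost in 7 of the 8 fits that each left out 1 library (edgeR adjusted p up to 0.169). A further 6 tested genes of the list lay outside the partner rule, and 2 of those were called higher and 2 lower.

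Genes for holding on to matrix moved in opposite directions. Of 17 tested integrin subunits, 3 were higher (17.6%) and 4 were lower (23.5%), against 2.61% and 3.82% of all 13810 genes. The largest fall was that of Itga2, the collagen-binding alpha2 chain, at 1.63, 2.92, 1.09 and 2.18 CPM with MLg, against 11.4, 16.3, 12.0 and 8.73 CPM alone (log2 fold change -2.62 ± 0.32 SE, edgeR adjusted p = 1.51e-05). The largest rise was that of Itgb2, the beta2 chain of leukocyte integrins, at 21.2, 19.0, 22.3 and 28.2 CPM with MLg, against 5.49, 5.95, 3.80 and 3.34 CPM alone, 4.90-fold higher (log2 fold change 2.29 ± 0.24 SE, edgeR adjusted p = 1.78e-06). In both genes the groups were wholly separate.

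MLg cells grown with EO771 held Itgb2 at 12.5 CPM, so the measured carry-over of partner RNA would bring 0.193 CPM of a mean rise of 18.0 CPM. Itgal and Itgad, leukocyte alpha chains that pair with Itgb2, were tested and not called. Itga3, the laminin-binding alpha3 chain, rose to 168 ± 15.1 CPM with MLg, against 94.1 ± 18.2 CPM alone, and Itgb7 to 165 ± 41.3 CPM, against 91.7 ± 7.82 CPM (SD, n = 4 each, edgeR adjusted p = 0.000218 and 0.000156). Itgb3, the beta3 chain of the vitronectin receptor, fell to 25.7 ± 5.28 CPM with MLg, against 51.2 ± 8.20 CPM alone (edgeR adjusted p = 0.00851). Itga1 fell less, to 61.5 ± 6.20 CPM, against 84.7 ± 8.11 CPM (edgeR adjusted p = 0.0131), and its call was lost without with MLg R6-2 or alone R3-2 (adjusted p up to 0.0526).

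Nid1, the basement membrane linker nidogen, rose to 930 ± 29.6 CPM with MLg, against 578 ± 66.3 CPM alone (SD, n = 4 each, log2 fold change 0.70 ± 0.11 SE, edgeR adjusted p = 0.000163). It was the single gene called higher of 14 tested basement membrane genes, of which 2 were lower, Col7a1 and the laminin chain Lamb3. In this list 7.14% were higher and 14.3% lower, against 2.61% and 3.82% of all 13810 genes. Sulf2, a secreted enzyme that trims heparan sulfate and was chosen after its values were seen, stood at 0.248, 0.361, 0.381 and 0.441 CPM with MLg, against 2.96, 2.98, 3.54 and 2.13 CPM alone (edgeR adjusted p = 2.43e-06). All 4 libraries with MLg lay below 1 CPM and all 4 alone lay above 2 CPM.

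Of 16 tested matrix proteases and inhibitors, 4 were higher (25%) and 2 were lower (12.5%), against 2.61% and 3.82% of all 13810 genes. Adam8, a membrane metalloprotease of leukocytes and tumours, stood at 14.4, 15.7, 17.1 and 22.3 CPM with MLg, against 3.02, 5.41, 4.51 and 2.08 CPM alone, 4.64-fold higher (log2 fold change 2.21 ± 0.24 SE, edgeR adjusted p = 3.03e-06). Adamts1, a secreted protease that cleaves proteoglycans, rose to 270 ± 86.7 CPM with MLg, against 145 ± 11.5 CPM alone, with R5-1 at 398 CPM (edgeR adjusted p = 0.00265). The groups did not overlap for either gene.

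The urokinase gene Plau averaged 98.2 ± 18.0 CPM with MLg and 58.1 ± 10.6 CPM alone, and its receptor gene Plaur 195 ± 31.4 and 123 ± 29.9 CPM (SD, n = 4 each, edgeR adjusted p = 0.0131 and 0.00936). Neither was called without with MLg R5-1 and R7-1 (adjusted p = 0.0611 and 0.104). Mmp13, a collagenase, fell to 2.27 ± 0.306 CPM with MLg, against 6.58 ± 1.76 CPM alone (edgeR adjusted p = 0.0159), and this call was lost without alone R5-1 (adjusted p = 0.0548), without with MLg R5-1 and R7-1 together (adjusted p = 0.058) and with the R number as a replicate block. Mmp2 lay outside the partner rule, with 1715 CPM in MLg grown with EO771.

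The largest rise was that of Sprr1a, a small proline-rich protein cross-linked into the cornified envelope of stratified epithelia. It stood at 19.8, 18.4, 24.9 and 24.3 CPM with MLg, against 0.587, 0.385, 0.913 and 0.393 CPM in EO771 alone. No library of EO771 alone reached 1 CPM and none with MLg lay under 18 CPM, a 38.5-fold difference (log2 fold change 5.27 ± 0.24 SE, edgeR adjusted p = 1.22e-10). The gene (ENSMUSG00000050359) lies on chromosome 3 from 92483952 to 92485895 in GENCODE M21, and its promoter above holds the AP-1 letters in 2 places. Co-cultured MLg held 2.34 CPM, which at the measured carry-over would bring 0.0363 CPM. The rise was not limited to MLg, as EO771 with C2C12 held Sprr1a at 14.1, 11.8, 17.8 and 12.2 CPM. The log2 difference of with MLg over with C2C12 was 0.72 ± 0.18 SE (edgeR adjusted p = 0.00561). C2C12 alone held 20.6 CPM, so the gene lay outside the partner rule for C2C12. Co-cultured C2C12 held 14.9 CPM, and the carry-over of C2C12 RNA into EO771 with C2C12 was 0.923% to 2.27%.

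Neighbours in the same cluster rose with it. Sprr2k (chromosome 3, 92432582 to 92433925) stood at 17.3, 12.6, 20.4 and 12.7 CPM with MLg, against 5.37, 3.44, 4.68 and 4.29 CPM alone (log2 fold change 1.84 ± 0.25 SE, edgeR adjusted p = 5.09e-05). Sprr1b (chromosome 3, 92436809 to 92438789) stood at 11.2, 8.46, 9.67 and 12.4 CPM with MLg, against 3.99, 4.18, 5.57 and 3.06 CPM alone (log2 fold change 1.32 ± 0.21 SE, edgeR adjusted p = 0.000212). Both pairs of groups were separate. Sprr2j-ps, listed as a pseudogene and chosen after its values were seen, averaged 2.22 ± 0.237 CPM with MLg and 0.112 ± 0.00635 CPM alone (SD, n = 4 each, edgeR adjusted p = 1.53e-07). Genes of this cluster are close copies of each other, so the authors' counting may have split reads among them.

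These 3 Sprr genes were the called members of a list of 38 cornified envelope and keratin genes, of which 9 passed the low count filter. Of the 9, 33.3% were higher, against 2.61% of all 13810 genes. Krt8 was among the 6 that were not called (edgeR adjusted p = 0.654). Other barrier genes, chosen after their values were seen, were higher as well. Sbsn, suprabasin, averaged 17.7 ± 2.06 CPM with MLg and 7.30 ± 1.37 CPM alone, Cdsn, corneodesmosin, 19.9 ± 4.39 and 10.5 ± 2.82 CPM, and the secreted protein gene Wfdc2 61.8 ± 3.82 and 28.2 ± 2.33 CPM (SD, n = 4 each, edgeR adjusted p = 9.18e-06, 0.000887 and 1.23e-06). The desmosome gene Pkp3 was the single gene called of 16 tested junction genes, at 14.1 ± 2.76 CPM with MLg and 7.24 ± 0.749 CPM alone (edgeR adjusted p = 0.000173). That is 6.25% higher, against 2.61% of all 13810 genes.

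Il24, a cytokine of the IL-10 family, was the second largest rise at this level, at 5.57, 7.17, 5.85 and 4.61 CPM with MLg, against 0.235, 0.564, 0.457 and 0.674 CPM alone. The lowest library with MLg was above the highest alone by a wide margin, a 12.0-fold difference (log2 fold change 3.59 ± 0.32 SE, edgeR adjusted p = 2.47e-07). MLg alone held 0 CPM and MLg grown with EO771 0.393 CPM. Of 18 tested cytokines and receptors of the IL-1, IL-6, IL-10 and TNF families, 2 were higher and 2 were lower. Each is 11.1%, against 2.61% higher and 3.82% lower over all 13810 genes. The other rise was that of Il1rap, the co-receptor of IL-1, at 41.7 ± 6.35 CPM with MLg and 25.4 ± 4.97 CPM alone (SD, n = 4 each, edgeR adjusted p = 0.00254). The falls were those of Il11 and of Lif, at 6.61 ± 1.55 and 10.4 ± 2.08 CPM (edgeR adjusted p = 0.0395), and the Lif call was lost in 6 of the 8 fits that each left out 1 library (adjusted p up to 0.139).

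Ly6 genes, which encode small lipid-anchored surface proteins, rose in 3 of 8 tested members of their list (37.5%, against 2.61% of all 13810 genes). Ly6g was at 4.10, 4.85, 4.74 and 4.63 CPM with MLg, against 0.352, 0.513, 0.571 and 0.646 CPM alone, 8.80-fold higher (log2 fold change 3.14 ± 0.26 SE, edgeR adjusted p = 1.6e-07). Ly6c1 was at 20.6, 13.6, 22.5 and 23.0 CPM with MLg, against 6.69, 5.72, 6.82 and 6.99 CPM alone (edgeR adjusted p = 3.24e-05). Ly6e averaged 379 ± 52.1 CPM with MLg and 246 ± 19.8 CPM alone (SD, n = 4 each, edgeR adjusted p = 0.00046). In all 3 the groups were separate. Cd109, a lipid-anchored protein that binds TGF-beta and its receptor, was lower, at 49.8 ± 6.33 CPM with MLg and 103 ± 4.48 CPM alone (edgeR adjusted p = 1.91e-07).

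Other large rises had no group of their own. Upp1, uridine phosphorylase, stood at 7.18, 6.38, 6.37 and 8.70 CPM with MLg, against 1.64, 1.74, 1.54 and 2.39 CPM alone (edgeR adjusted p = 7.82e-06). Rgs16, a brake on G protein signalling that was chosen after its values were seen, averaged 84.1 ± 9.57 CPM with MLg and 35.7 ± 6.43 CPM alone (SD, n = 4 each, edgeR adjusted p = 6.21e-06). Ppm1k, the phosphatase that activates branched-chain amino acid breakdown, averaged 27.5 ± 3.13 and 10.6 ± 1.23 CPM (edgeR adjusted p = 2.13e-06). For all 3 the groups were separate. Zfp575, a zinc finger gene, Tmem40, a membrane protein gene, and Rrad, a small GTPase, completed the 15 largest rises, with fold changes of 2.75, 2.58 and 2.56.

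**Figure D3:**
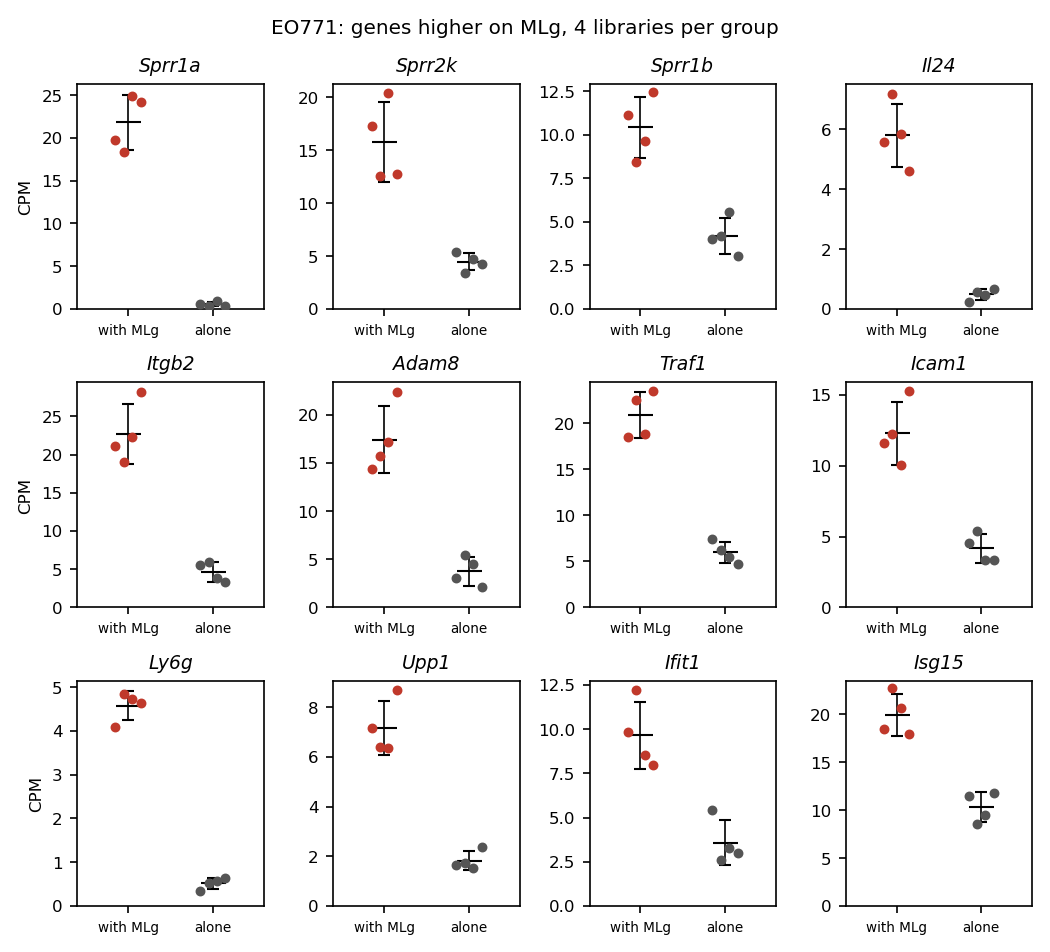
CPM of 12 genes in the 4 libraries of EO771 with MLg (red, left) and the 4 of EO771 alone (grey, right), on linear axes from 0. Points are libraries, and the bars give the mean and SD. Every library with MLg lies above every library alone in each panel, with means of 21.8 against 0.569 CPM for Sprr1a and 19.9 against 10.3 CPM for Isg15.

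Genes of the NF-kB pathway and its targets moved in both directions. Of 21 tested members, 3 were higher (14.3%) and 5 were lower (23.8%), against 2.61% and 3.82% of all 13810 genes. Traf1, an adaptor of TNF receptors, stood at 18.5, 22.5, 18.9 and 23.5 CPM with MLg, against 7.42, 6.28, 5.45 and 4.72 CPM alone, 3.52-fold higher (log2 fold change 1.82 ± 0.19 SE, edgeR adjusted p = 2.32e-06). Icam1, the ligand of beta2 integrins, stood at 11.6, 12.2, 10.0 and 15.3 CPM with MLg, against 4.55, 5.41, 3.37 and 3.34 CPM alone (log2 fold change 1.57 ± 0.23 SE, edgeR adjusted p = 9.04e-05). The groups of both were separate.

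The 2 precursor subunits of NF-kB changed in opposite directions. Nfkb2, which gives p52, averaged 204 ± 6.66 CPM with MLg and 133 ± 17.5 CPM alone, and Nfkb1, which gives p50, 114 ± 8.49 and 182 ± 18.0 CPM (SD, n = 4 each, edgeR adjusted p = 0.000116 and 6.42e-05). The receptor gene Cd40 stood at 6.83, 6.08, 4.63 and 8.82 CPM with MLg, against 37.9, 42.8, 48.6 and 33.3 CPM alone, 6.12-fold lower (log2 fold change -2.61 ± 0.18 SE, edgeR adjusted p = 1.11e-08), with the groups far apart. Nfkbiz, a nuclear regulator of NF-kB, averaged 43.2 ± 12.4 and 105 ± 7.59 CPM, Ptgs2, the cyclooxygenase COX-2, 43.8 ± 15.4 and 93.3 ± 6.70 CPM, and the macrophage growth factor gene Csf1 103 ± 12.7 and 145 ± 14.2 CPM (edgeR adjusted p = 3.15e-06, 0.000405 and 0.00694).

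Among 9 tested genes of chemokines and their receptors 2 were higher and 2 were lower. Each is 22.2%, against 2.61% higher and 3.82% lower over all 13810 genes. Ccl5, which attracts T cells, stood at 7.86, 9.43, 8.33 and 7.77 CPM with MLg, against 3.61, 2.18, 2.54 and 2.92 CPM alone (log2 fold change 1.58 ± 0.20 SE, edgeR adjusted p = 2.16e-05). Co-cultured MLg held 10.5 CPM of Ccl5, and the measured carry-over would bring 0.162 CPM of a rise of 5.53 CPM. Ccl20 fell to 0.496 ± 0.277 CPM, against 2.41 ± 0.742 CPM (SD, n = 4 each, edgeR adjusted p = 0.00352). Cxcl10 averaged 12.6 ± 3.22 and 7.39 ± 1.91 CPM (edgeR adjusted p = 0.0131) and was not called without with MLg R5-1 (adjusted p = 0.0511), and Cxcl1 averaged 81.4 ± 32.9 and 133 ± 27.8 CPM (edgeR adjusted p = 0.0451) and lost its call in 6 of the 8 fits that each left out 1 library (adjusted p up to 0.148). The acute phase gene Saa3 fell to 1.29 ± 0.489 CPM with MLg, against 6.26 ± 1.05 CPM alone (edgeR adjusted p = 7.82e-06).

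Interferon-stimulated genes were higher where they were called. Of 42 genes listed, 19 were tested under the partner rule, 7 were higher and none was lower, with a median log2 fold change of 0.44. That is 36.8% higher, against 2.61% of all 13810 genes. A further 22 tested genes of the list lay outside the partner rule, and 19 of those were called higher. Ifit1, an antiviral RNA-binding protein, stood at 9.83, 12.2, 8.52 and 7.99 CPM with MLg, against 5.43, 2.62, 3.28 and 3.00 CPM alone (log2 fold change 1.45 ± 0.23 SE, edgeR adjusted p = 0.0002). Isg15, a ubiquitin-like modifier, stood at 18.5, 22.8, 20.6 and 17.9 CPM with MLg, against 11.4, 8.54, 9.48 and 11.8 CPM alone (log2 fold change 0.97 ± 0.16 SE, edgeR adjusted p = 0.000264). Usp18, which removes Isg15 from proteins, averaged 2.32 ± 0.787 CPM with MLg and 0.553 ± 0.237 CPM alone (SD, n = 4 each, edgeR adjusted p = 0.00279).

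The libraries of MLg with EO771 held far more of these 3 transcripts. They averaged 199 CPM of Ifit1, 109 CPM of Isg15 and 25.0 CPM of Usp18, against 4.12, 4.07 and 1.62 CPM in MLg alone. At the carry-over measured over fibroblast genes, 3.07 CPM of the 6.06 CPM rise of Ifit1 would be partner RNA, 1.69 of 9.64 CPM for Isg15 and 0.387 of 1.76 CPM for Usp18. With partner counts subtracted, 3 of the 19 genes were called higher and Ifit1 was not (log2 fold change 0.94, edgeR adjusted p = 0.0889), and requiring co-cultured MLg also to be at most 4 times EO771 alone left 1 called gene. That gene was Oasl1, with 1.79 CPM in co-cultured MLg, at 7.84 ± 2.25 CPM with MLg and 4.73 ± 0.599 CPM alone (SD, n = 4 each, edgeR adjusted p = 0.0157), and it was not called without with MLg R5-1 or alone R3-1 (adjusted p up to 0.0513). The remaining 3, Ifih1, Cmpk2 and Samd9l, each lost their call in 2 or more of the 8 fits that left out 1 library. Ifnb1 was at 0 in all 4 libraries alone and at 0.290, 0, 0 and 0.196 CPM with MLg, under the low count filter. The MHC class I gene H2-D1 averaged 490 ± 74.9 CPM with MLg and 309 ± 29.0 CPM alone (edgeR adjusted p = 0.00214), the single gene called of 14 in its list. That is 7.14% higher, against 2.61% of all 13810 genes.

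The growth factor receptor genes Egfr, Met and Fgfr1 were called. Of 16 tested members of the PDGF, FGF, HGF, IGF and VEGF signal list, 1 was higher, Met, and 2 were lower, Fgfr1 and Vegfa. These are 6.25% and 12.5%, against 2.61% and 3.82% of all 13810 genes. The other 13, ligands and receptors, were not called. The Vegfa call was lost in 5 of the 8 fits that each left out 1 library. Egfr, the EGF receptor, stood at 83.8, 106, 70.9 and 90.0 CPM with MLg, against 42.9, 69.5, 60.3 and 53.2 CPM alone (log2 fold change 0.65 ± 0.14 SE, edgeR adjusted p = 0.00403), the groups separated by little more than 1 CPM. Met, the receptor of hepatocyte growth factor, stood at 346, 336, 314 and 262 CPM with MLg, against 195, 233, 227 and 220 CPM alone (log2 fold change 0.54 ± 0.11 SE, edgeR adjusted p = 0.00227). Fgfr1, an FGF receptor, stood at 95.4, 89.1, 91.4 and 121 CPM with MLg, against 160, 183, 172 and 151 CPM alone (log2 fold change -0.74 ± 0.11 SE, edgeR adjusted p = 0.000173). All 3 pairs of groups were separate, Egfr and Met upward and Fgfr1 downward.

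Co-cultured MLg held Egfr at 196 CPM, and the measured carry-over would bring 3.03 CPM of a rise of 31.2 CPM. In the EGF family list 3 of 10 tested members were higher (30%) and 2 were lower (20%), against 2.61% and 3.82% of all 13810 genes. The lower genes were the ligands Ereg, at 35.9 ± 3.58 CPM with MLg and 52.9 ± 5.42 CPM alone, and Areg, at 40.2 ± 9.87 and 58.8 ± 6.04 CPM (SD, n = 4 each, edgeR adjusted p = 0.00354 and 0.0379), and the Areg call was lost in 6 of the 8 fits that each left out 1 library (adjusted p up to 0.114). Of 16 tested ERK feedback and ETS target genes 3 were higher and 3 were lower, 18.8% each. The MAP kinase phosphatases differed in direction, with Dusp5 at 15.2 ± 0.659 CPM with MLg and 8.81 ± 0.802 CPM alone, and Dusp4 at 159 ± 12.6 and 279 ± 33.7 CPM (edgeR adjusted p = 0.000373 and 4.35e-05). Of 16 tested AP-1 and immediate early genes 2 were higher, Jun and Klf2, and 3 were lower, Fosl2, Nr4a1 and Myc. These are 12.5% and 18.8%, against 2.61% and 3.82% of all 13810 genes. Without with MLg R5-1 and R7-1 together 0 were higher and 3 lower.

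Redox genes under the factor NRF2 were lower in 5 of 22 tested members (22.7%, against 3.82% of all 13810 genes) and higher in none. Hmox1, heme oxygenase 1, stood at 167, 188, 139 and 205 CPM with MLg, against 365, 342, 427 and 406 CPM alone, 2.19-fold lower (log2 fold change -1.13 ± 0.14 SE, edgeR adjusted p = 1.1e-05). Both subunits of the enzyme that starts glutathione synthesis fell, Gclm to 59.0 ± 3.53 CPM with MLg, against 90.3 ± 8.69 CPM alone, and Gclc to 149 ± 10.3 CPM, against 217 ± 14.6 CPM (SD, n = 4 each, edgeR adjusted p = 0.0026 and 0.000814). The groups of these 3 genes were separate. Txnrd1, thioredoxin reductase, and Cat, catalase, were the other 2, and neither was called without with MLg R5-1 and R7-1 (adjusted p = 0.0878 and 0.0937), which left 3 genes. Txnrd1 was also not called without alone R5-1 (adjusted p = 0.0967), and Cat lost its call in 5 of the 8 fits that left out 1 library.

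The clock list had 5 of 15 tested members lower (33.3%, against 3.82% of all 13810 genes) and none higher, and 2 lower in the fit of all 28 libraries. Arntl, the BMAL1 factor that drives the clock, averaged 23.4 ± 1.20 CPM with MLg and 35.2 ± 2.47 CPM alone, and Nr1d2, a nuclear receptor that represses Arntl, 41.2 ± 2.28 and 59.1 ± 5.00 CPM (SD, n = 4 each, edgeR adjusted p = 0.000486 and 0.0014). Bhlhe40, a repressor in the same loop that is also a TGF-beta and hypoxia target, averaged 32.6 ± 5.35 and 57.3 ± 5.30 CPM (edgeR adjusted p = 7.78e-05). The groups of all 3 were separate, and Ciart and Nfil3 were the other 2 called. The Ciart call was lost in all 8 fits that each left out 1 library (adjusted p up to 0.133).

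In lipid metabolism, Abcg1, a sterol exporter, stood at 7.88, 5.93, 5.47 and 5.42 CPM with MLg, against 11.9, 19.4, 17.3 and 15.2 CPM alone (log2 fold change -1.35 ± 0.21 SE, edgeR adjusted p = 0.000172). Of 21 tested genes of cholesterol synthesis and uptake 4 were higher (Mvd, Lss, Msmo1 and Dhcr7) and none was lower, with a median log2 fold change of 0.33. That is 19.0% higher, against 2.61% of all 13810 genes. All 4 calls were lost in 2 or more of the 8 fits that left out 1 library, and none was called in the fit of all 28 libraries, 1 was with partner counts subtracted and 10 were without with MLg R5-1 and R7-1. Acsbg1, an acyl-CoA synthetase, stood at 2.32, 2.23, 1.80 and 3.14 CPM with MLg, against 17.5, 17.4, 18.6 and 16.9 CPM alone, 7.36-fold lower (log2 fold change -2.88 ± 0.16 SE, edgeR adjusted p = 1.18e-09), with every library with MLg under 4 CPM.

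Surface genes that immune cells read were mixed. Raet1e and Raet1d, ligands of the natural killer receptor NKG2D, averaged 37.2 ± 6.25 and 28.3 ± 5.19 CPM with MLg, against 21.7 ± 1.30 and 17.7 ± 1.39 CPM alone (SD, n = 4 each, edgeR adjusted p = 0.000183 and 0.00204). They are near copies of each other. Nectin2, a ligand of DNAM-1, rose to 25.9 ± 2.37 CPM, against 15.2 ± 2.24 CPM (edgeR adjusted p = 0.00067). Cd47, a signal against phagocytosis, fell to 68.2 ± 6.51 CPM, against 107 ± 7.29 CPM (edgeR adjusted p = 5.83e-05), and Nt5e, the CD73 enzyme that makes adenosine, to 0.841 ± 0.558 CPM, against 4.71 ± 0.557 CPM (edgeR adjusted p = 6.42e-05). The fall of Nt5e was larger without with MLg R5-1 and R7-1 (log2 fold change -3.52 in place of -2.48). The checkpoint ligand gene Cd274 stood at 6.12 ± 0.722 and 5.12 ± 0.358 CPM (edgeR adjusted p = 0.342).

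Myc and its target Odc1 moved apart. Myc stood at 363, 556, 384 and 498 CPM with MLg, against 638, 790, 732 and 669 CPM alone (log2 fold change -0.64 ± 0.13 SE, edgeR adjusted p = 0.00303). Odc1, the first enzyme of polyamine synthesis, stood at 2598, 2086, 2697 and 2334 CPM with MLg, against 1885, 1766, 1616 and 1692 CPM alone (log2 fold change 0.49 ± 0.10 SE, edgeR adjusted p = 0.00305). The groups of both genes were separate, and neither was called in a fit of all 28 libraries. Of 30 tested MYC and ribosome biogenesis genes 1 was higher, Odc1, and 2 were lower, Myc and its partner Max. The shares were 3.33% higher and 6.67% lower, against 2.61% and 3.82% of all 13810 genes. The Max call was lost in 6 of the 8 fits that each left out 1 library (adjusted p up to 0.213).

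Lists of the cell cycle, respiration and hypoxia follow. None of 36 S phase genes was called (edgeR, 2 with an unadjusted p under 0.05, and none by DESeq2). Of 30 G2/M genes 1 was called lower, Top2a, which is 3.33%, against 3.82% of all 13810 genes. Top2a lost its call in 6 of the 8 fits that left out 1 library (edgeR adjusted p up to 0.11). The proliferation marker Mki67 stood at 144 ± 8.38 CPM with MLg and 126 ± 10.2 CPM alone (SD, n = 4 each, edgeR adjusted p = 0.396). None of 31 nuclear genes of oxidative phosphorylation was called (edgeR, none with an unadjusted p under 0.05, and none by DESeq2). Of 26 hypoxia genes none was higher and 3 were lower (11.5%, against 3.82% of all 13810 genes), Vegfa, Bhlhe40 and Ddit4. The calls of Vegfa and Ddit4 were lost in 5 and 6 of the 8 fits that left out 1 library (adjusted p up to 0.108 and 0.105). Hif1a, the oxygen-regulated subunit of the hypoxia factor, stood at 307 ± 41.0 and 346 ± 11.9 CPM (edgeR adjusted p = 0.431) and the glucose transporter gene Slc2a1 at 197 ± 20.3 and 169 ± 17.7 CPM (edgeR adjusted p = 0.241).

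Some of the most abundant rises moved with 2 libraries. The mitochondrial ribosomal RNA mt-Rnr2 stood at 743, 3504, 1416 and 6559 CPM with MLg, against 1263, 1084, 939 and 802 CPM alone, and Lars2, a mitochondrial leucine-tRNA ligase, at 462, 1411, 941 and 2344 CPM with MLg, against 484, 702, 587 and 320 CPM alone. With MLg R5-1 and R7-1, the libraries with the high mitochondrial share, were above all others in both genes, while R6-1 lay below the alone range for mt-Rnr2 and within it for Lars2. The edgeR adjusted p was 0.0226 for mt-Rnr2 and 0.0136 for Lars2, and without those 2 libraries it was 0.888 and 0.358. Leaving out R7-1 alone ended both calls (adjusted p up to 0.138 for mt-Rnr2 over all 8 such fits and 0.0721 for Lars2). These genes were chosen after their values were seen.

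**Figure D4:**
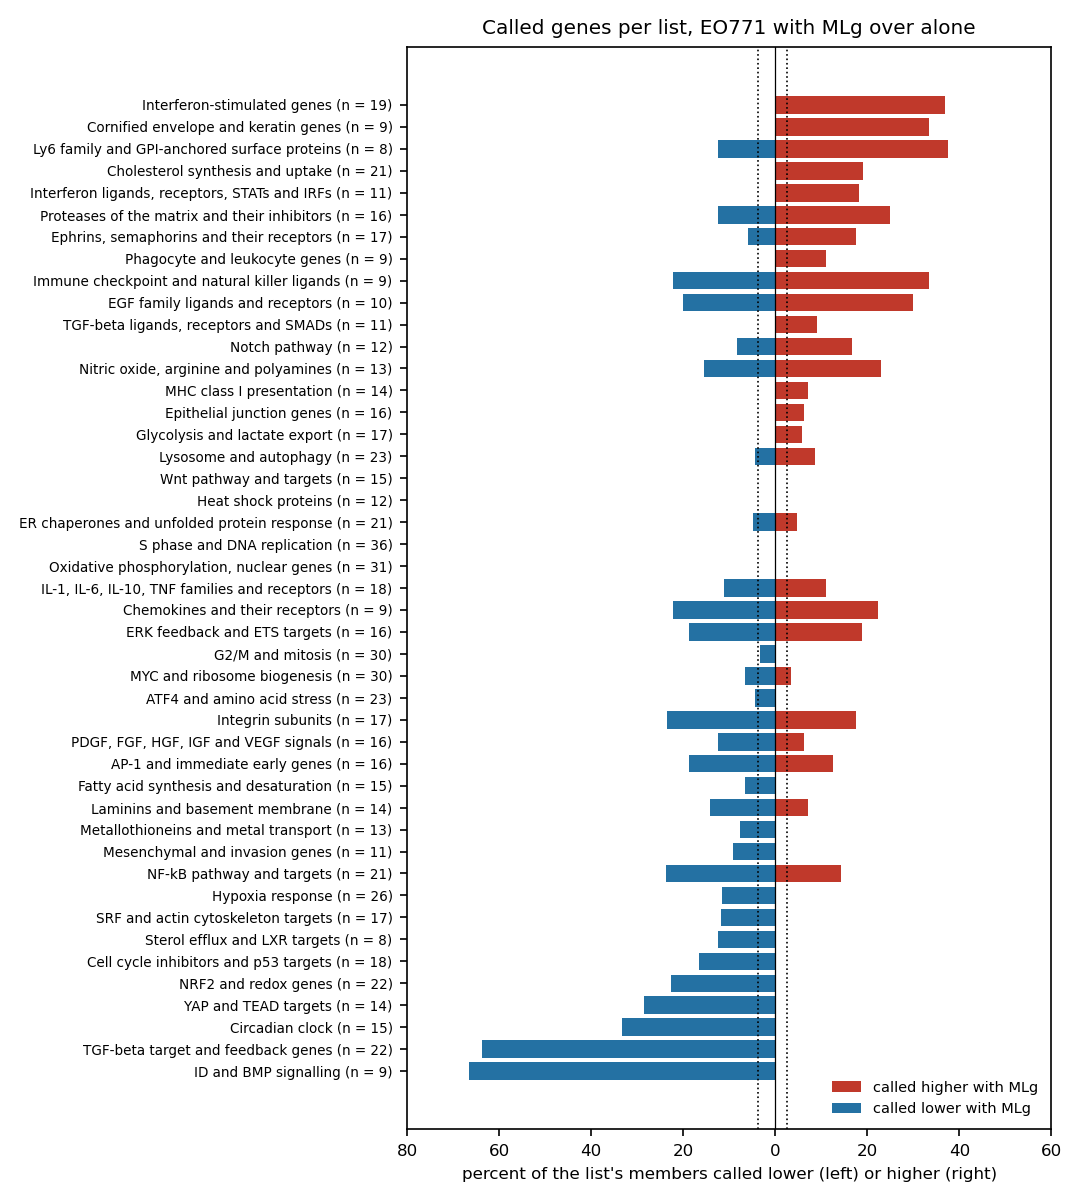
For each list with 8 or more tested members, the bar to the right gives the percent of members called higher with MLg and the bar to the left the percent called lower, over the number of members in brackets. Dotted lines mark the shares over all 13810 genes, 2.61% higher and 3.82% lower. The ID and BMP list and the TGF-beta target list reach farthest to the left, with 6 of 9 and 14 of 22 members lower.

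EO771 cells kept on myotubes give the same measurements with another partner line. Setting EO771 with MLg against EO771 with C2C12, and keeping 13246 genes whose mean in C2C12 alone was also at most 4 times that in EO771 alone, 1712 genes were higher with MLg, which is 12.9%, and 1660 were lower, which is 12.5% (same edgeR fit). The tests against EO771 alone and against EO771 with C2C12 share the 4 libraries with MLg, and 3 of the 4 libraries with C2C12 hold even counts only. Leaving out with C2C12 R3-1 gave 1040 genes higher, against 1712 with all libraries. Of 17 TGF-beta targets that could be compared, 12 were lower with MLg than with C2C12 and 1, Ctps, was higher.

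Lrrc15 averaged 1.36 ± 0.403 CPM with MLg, 5.49 ± 1.13 CPM with C2C12 and 19.2 ± 3.35 CPM alone, and Col7a1 8.53 ± 3.05, 31.4 ± 3.78 and 118 ± 21.7 CPM (SD, n = 4 each). Both were lower with MLg than with C2C12 (log2 difference -1.94 ± 0.22 SE and -1.80 ± 0.18 SE, edgeR adjusted p = 5.24e-06 and 1.26e-06). In both genes the 3 groups were fully ordered, with no overlap between neighbours. Id3, in contrast, averaged 3.37 ± 0.628, 4.44 ± 1.35 and 20.8 ± 4.82 CPM, and the 2 co-cultures did not differ past the threshold (edgeR adjusted p = 0.339).

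For some genes the 2 partners lay on opposite sides of EO771 alone. The filamin-binding adaptor gene Fblim1 averaged 6.57 ± 1.42 CPM with MLg, 33.1 ± 5.43 CPM with C2C12 and 22.0 ± 2.62 CPM alone (SD, n = 4 each). The log2 difference between with MLg and with C2C12 was -2.24 ± 0.15 SE (edgeR adjusted p = 1.16e-08). Foxs1, a forkhead factor, averaged 3.11 ± 0.88, 17.1 ± 5.32 and 8.77 ± 1.04 CPM, and Itgb3 25.7 ± 5.28, 115 ± 58.9 and 51.2 ± 8.20 CPM (edgeR adjusted p = 3.37e-07 and 5.32e-06 for with MLg against with C2C12). Unc5b, a netrin receptor, fell with MLg while it stood near EO771 alone with C2C12, at 75.3 ± 9.49, 230 ± 47.6 and 216 ± 27.0 CPM (edgeR adjusted p = 1.98e-07 for with MLg against with C2C12).

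Rises were shared to a varying degree. Itgb2 averaged 22.7 ± 3.93 CPM with MLg, 55.7 ± 23.9 CPM with C2C12 and 4.64 ± 1.27 CPM alone, and Adam8 17.4 ± 3.47, 49.0 ± 14.3 and 3.76 ± 1.49 CPM, so that both were lower with MLg than with C2C12 (SD, n = 4 each, edgeR adjusted p = 0.000482 and 0.000131). Il24 averaged 5.80 ± 1.06, 3.49 ± 1.03 and 0.482 ± 0.187 CPM, higher with MLg (edgeR adjusted p = 0.0297), a call lost in 4 of the 8 fits that each left out 1 library of these groups (adjusted p up to 0.0924). Traf1 averaged 20.8 ± 2.51, 16.8 ± 5.47 and 5.97 ± 1.16 CPM and Sprr2k 15.8 ± 3.80, 17.2 ± 6.32 and 4.45 ± 0.806 CPM, and neither differed between the partners past the threshold (edgeR adjusted p = 0.115 and 0.918). Egfr stood at 87.7 ± 14.5, 57.5 ± 4.31 and 56.5 ± 11.2 CPM, higher with MLg than with C2C12 (edgeR adjusted p = 0.00123), and Nfkb2 at 204 ± 6.66, 120 ± 6.78 and 133 ± 17.5 CPM, likewise (edgeR adjusted p = 3.77e-06).

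Among genes at 5 CPM or more in either co-culture, the lowest level relative to C2C12 was that of Atp7b, a copper transporter, at 0.418 CPM with MLg, 17.8 CPM with C2C12 and 0.370 CPM alone (log2 difference -5.32 ± 0.32 SE, edgeR adjusted p = 3.49e-09). Loxl2, which cross-links collagen, averaged 8.15 ± 0.764 CPM with MLg, 79.4 ± 5.90 CPM with C2C12 and 8.60 ± 1.80 CPM alone (SD, n = 4 each, edgeR adjusted p for with MLg against with C2C12 = 4.43e-11). Neither gene was called between with MLg and alone, whereas Nos2, the inducible nitric oxide synthase, was called lower with MLg, at 3.59 ± 1.49, 71.6 ± 21.4 and 8.21 ± 3.01 CPM, a call lost without alone R3-1 (adjusted p = 0.0534). Of the genes comparable between partners, 13 of 18 hypoxia genes and 13 of 15 glycolysis genes were lower with MLg than with C2C12. The share lower over all 13246 genes was 12.5%. Against EO771 alone, 1 of 17 tested glycolysis genes was called higher with MLg (5.88%, against 2.61% of all 13810 genes) and none lower. Higher with MLg than with C2C12 were 26 of 30 MYC and ribosome biogenesis genes, 23 of 36 S phase genes and 10 of 30 G2/M genes. The share higher over all 13246 genes was 12.9%. Without with C2C12 R3-1 these 3 counts were 25, 13 and 3. The G2/M count was 4 without with MLg R6-1 and 4 without with MLg R6-2. Cdkn1a, the cell cycle inhibitor p21, averaged 24.6 ± 2.08 CPM with MLg, 132 ± 30.5 CPM with C2C12 and 34.8 ± 4.08 CPM alone, and the vitamin transporter gene Slc5a6 38.4 ± 5.64, 15.3 ± 3.96 and 38.3 ± 4.28 CPM (edgeR adjusted p = 2.22e-09 and 8.54e-06 for with MLg against with C2C12).

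**Figure D5:**
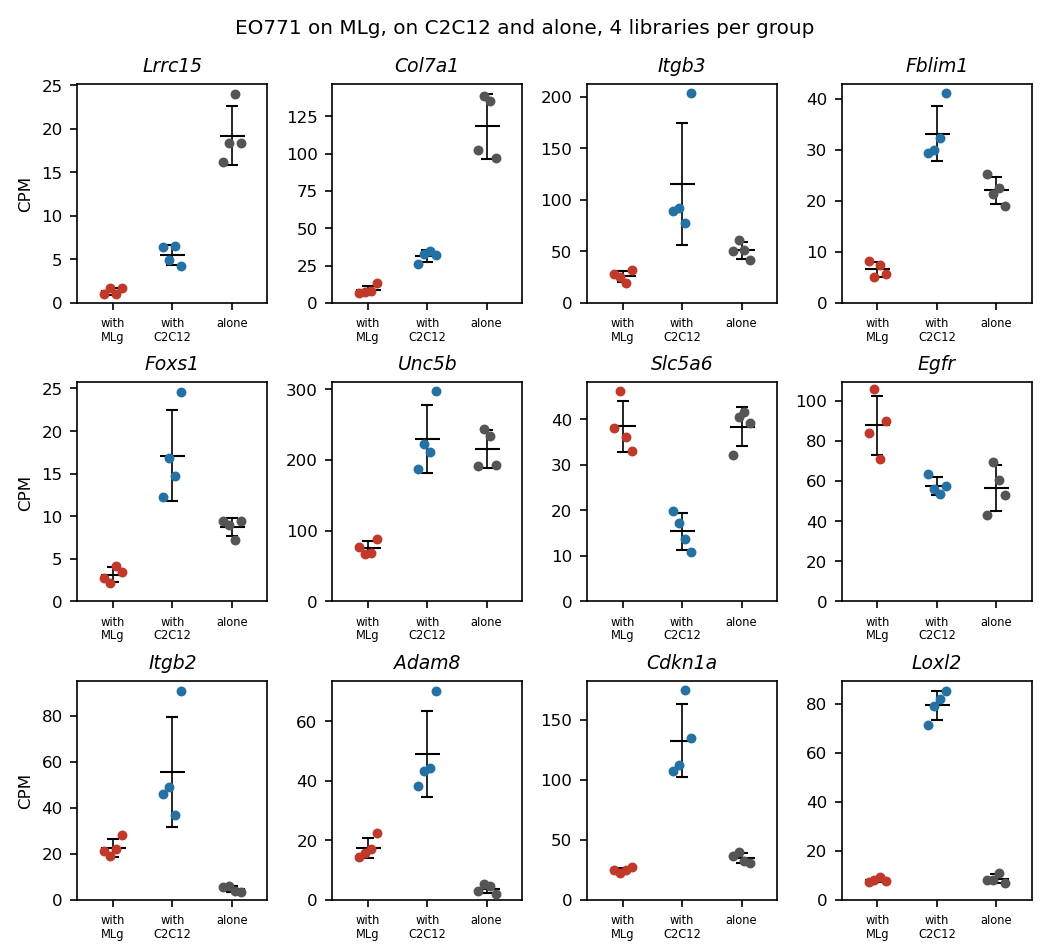
CPM of 12 genes in EO771 with MLg (red, left), EO771 with C2C12 (blue, middle) and EO771 alone (grey, right), 4 libraries each, on linear axes from 0. Points are libraries, and the bars give the mean and SD. Lrrc15 and Col7a1 are lowest with MLg and highest alone, Itgb3 is lowest with MLg and highest with C2C12, and Loxl2 is near 8 CPM with MLg and alone and at 79.4 CPM with C2C12.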

How the data were processed

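Libraries were made from the RNA of each line with a TruSeq Stranded mRNA kit, as the labels' protocols state. The authors deposited raw read counts per Ensembl gene, and per the submitters' processing notes the tools included STAR 2.7.10a, fastp, DESeq2 and featureCounts of Subread 2.0.1. The strand setting, build and annotation were not given in the sources used here, so reads of antisense genes cannot be told apart. All 55536 gene identifiers matched GENCODE M21.

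Genes were filtered with edgeR's filterByExpr (minimum count 10, minimum total 15), scaled by TMM and tested with edgeR 4.0.16 in R 4.3.3 (quasi-likelihood F test) in 1 fit of the 12 EO771 libraries with a mean per group. P-values were adjusted by Benjamini-Hochberg over all 15794 genes tested, with a threshold of 0.05. CPM is a count divided by the library total, and 3 counts correspond to 0.0621 to 0.0903 CPM in the libraries with MLg and 0.0770 to 0.0880 CPM in those alone. The carry-over share used genes at 10 CPM or more in MLg alone and at most 0.1 CPM in each EO771 alone library. Of the 28 libraries 5 hold even counts only, none of them among the 8 compared with MLg and alone.

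Members and gene lists were chosen with earlier results of these data known. Named genes were called, at 5 CPM or more and separate between groups (15 largest rises and 15 largest falls), or the first gene and up to 4 called genes at 2 CPM or more with the largest change in each list. Other genes given here, among them Tgfb1, Tgfbr1, Tgif1, Spsb1, Itgb5, Itga3, Plau, Plaur, Nfkb2, Csf1, Ptgs2, Acvr1, Smad1, Cd47, Unc5b, Fblim1, Foxs1, Loxl2, Atp7b, Slc5a6, Mki67, Hif1a, Slc2a1, Cat, Lars2, mt-Rnr2 and the markers, were chosen after their values were seen. One gene that the rule names is not reported here. Alternatives were RLE scaling, DESeq2 1.42.0, other count filters, other samples in the fit, the R number as a block, partner counts subtracted, other partner rules and leaving out libraries. Same-numbered libraries correlated at 0.129, 0.0209 and 0.0723 in their deviations from group means, so the R number was not taken to pair them.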

Additional observations from a re-analysis of the deposited data

Results flagged for a closer look

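Within groups of 4 libraries, 9 of 276 groups held a library whose gap to the nearest other, as a share of the range, passed Dixon's critical value, and chance gives about 1 in 20. With MLg, these were R7-1 for Rrad, at 9.75 CPM against 7.35 to 7.63 CPM in the other 3, R7-1 for H2-D1, at 602 CPM against 443 to 464 CPM, R5-1 for Cat, at 51.7 CPM against 69.1 to 71.2 CPM, R6-1 for the ETS factor gene Etv5, at 26.8 CPM against 21.7 to 22.4 CPM, and R6-2 for Cdh1, at 0.381 CPM against at most 0.0414 CPM. In EO771 alone, R5-1 was low for Id2, at 15.2 CPM against 21.8 to 22.6 CPM, low for Usp18, at 0.200 CPM against 0.645 to 0.702 CPM, and high for Nr1d2, at 66.6 CPM against 56.2 to 57.3 CPM. Alone R3-1 was high for Cxcl10, at 10.2 CPM against 6.22 to 6.54 CPM.

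For 8 genes every library with MLg lay below every library alone and every library with C2C12 lay above every library alone. The log2 difference of with MLg over with C2C12 was -2.08 for Itgb3, -1.23 for Cd109, -1.42 for Areg, -1.95 for Ddit4, -2.24 for Fblim1, -2.38 for Foxs1, -2.35 for Cdkn1a and -1.21 for the actin-binding protein gene Tagln2.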

How the results depend on the processing

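Against EO771 alone, the count of genes higher with MLg (361) was 551 by DESeq2, 588 without with MLg R5-1 and R7-1, 217 when MLg alone had to be at most 1 times EO771 alone and 946 with no partner rule, and 241 to 385 when 1 library was left out. The count lower (528) was 295 in the fit of all 28 libraries and 325 to 529 when 1 library was left out, with 349 without with MLg R6-2 and 325 without alone R5-1. Against C2C12, the count higher (1712) was 1040 to 1683 and the count lower (1660) 1179 to 1594 when 1 library was left out, and 723 were lower under the 1 times rule.

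The count of interferon-stimulated genes called higher (7) was 11 with no low count filter, 3 in the fit of all 28 libraries, 3 with partner counts subtracted, 3 under the 1 times rule, 1 when co-cultured MLg also had to pass the rule and 26 with no partner rule. It was 5 to 7 when 1 library was left out, that of TGF-beta targets lower 14 to 15, that of ID and BMP genes lower 5 to 6, and that of NRF2 genes lower (5) 3 to 6, with 3 without with MLg R5-1 and R7-1. With the R number as a replicate block, 428 genes were higher and 487 lower against alone, and 1717 higher and 1646 lower against C2C12. In the fit of all 28 libraries, no EGF family gene (2 otherwise), no gene of the chemokine list (2), 1 ERK feedback gene (3) and 1 hypoxia gene (3) was called lower against alone. The cause of these shifts was not tested.

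Of 163 named genes that were called, 97 kept their call in all 18 alternatives of the fit. Of 60 list counts, many of them small, 8 stayed within 1.5 times in every alternative. The log2 fold change of Mmp2, outside the partner rule, was -0.51 with partner counts subtracted, and that of mt-Rnr1 was -0.0083 without with MLg R5-1 and R7-1. Library totals limit precision for genes near 3 counts.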
